A study of Mus musculus with 4 samples.

Results

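The tumor necrosis factor (TNF) group followed here holds the ligands Tnf, Tnfsf9 and Tnfsf15, the TNF receptors Tnfrsf1a and Tnfrsf1b, the adaptors Traf1 and Traf2, and the survival genes Birc2, Birc3 and Cflar. Its members were the probe sets (sets of short probes against 1 transcript) whose only gene symbol in the platform annotation was 1 of these 10 names. This gave 16 probe sets of 34945 with a single symbol, for 9 of 18193 genes. Tnfsf15 had no such probe set and was not analysed here. Thioglycollate-elicited peritoneal macrophages of KO mice (LysM Cre/+:Setdb1 fl/fl) and WT mice (+/+:Setdb1 fl/fl) received lipid A, the active part of lipopolysaccharide, or vehicle for 4 h. RNA of each of the 4 conditions was hybridised to 1 Affymetrix mouse array. The strain is labelled C57BL6/J, both genotypes carry the floxed alleles, and Cre runs from the lysozyme M locus, which is active in neutrophils as well as in macrophages. The age of the mice and the number behind each array are not stated. The dose is 10 ng/ml in the series description and 10 µg/ml in the sample labels.

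TNF is a cytokine that macrophages release within hours of sensing bacterial products through Toll-like receptor 4. It binds TNFR1 (Tnfrsf1a), which most cells carry, and TNFR2 (Tnfrsf1b), which is largely a receptor of immune and endothelial cells. The receptors assemble TRAF adaptors and the ubiquitin ligases cIAP1 (Birc2) and cIAP2 (Birc3), which pass the signal to NF-κB. NF-κB in turn drives survival genes such as Cflar, whose product c-FLIP holds caspase-8 in check. When this arm fails, TNFR1 can signal cell death.

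Lipid A was followed by higher signals of most of the group in both genotypes, and Tnf showed the largest ratio of these genes. Each gene was read by its probe set of highest mean log2 signal, and counted when the higher of the compared signals reached the median of its array (75.8 in KO and 74.8 in WT with lipid A, and 84.2 in KO and 65.1 in WT with vehicle). In KO, 7 of the 9 genes were over 2-fold higher in lipid A than in vehicle, beside 11.2% of 12293 genes detected, and 0 were over 2-fold lower, beside 16% of them. In WT the same 7 genes were over 2-fold higher, beside 11.8% of 12129 genes, and 0 were lower, beside 8.94%. These were Tnf, Tnfsf9, Tnfrsf1b, Traf1, Traf2, Birc3 and Cflar, while Tnfrsf1a and Birc2 stayed within 2-fold. The median log2 difference of the 9 genes was 2.50 in KO and 1.88 in WT, and that of all detected genes was -0.20 and -0.08. With 1 array for each condition, no difference has a replicate check and no test was possible.

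Between the genotypes the group differed much less. Under lipid A, 1 of 9 genes, Tnf, was over 2-fold higher in KO than in WT, beside 10.6% of 12335 detected genes, and 0 were lower, beside 10.3%. Under vehicle 0 were over 2-fold higher, beside 11.1% of 12002 genes, and 1, Traf1, was lower by the brighter of its 2 probe sets, beside 6.17%. These shares of the group lie near those of all genes. The genes' median of log2 KO over WT was 0.04 under lipid A and -0.11 under vehicle, against -0.01 and 0.10 over all detected genes. The array medians themselves differed by 0.37 on the log2 scale between KO vehicle and WT vehicle, and by 0.02 between the lipid A arrays, so small differences under vehicle are to be read beside that shift. As a technical measure, probe sets of 1 gene differed in log2 KO over WT with an SD of 0.41 under lipid A and 0.42 under vehicle, over 4260 and 4413 genes, or 1.33-fold and 1.34-fold.

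**Figure D1:**
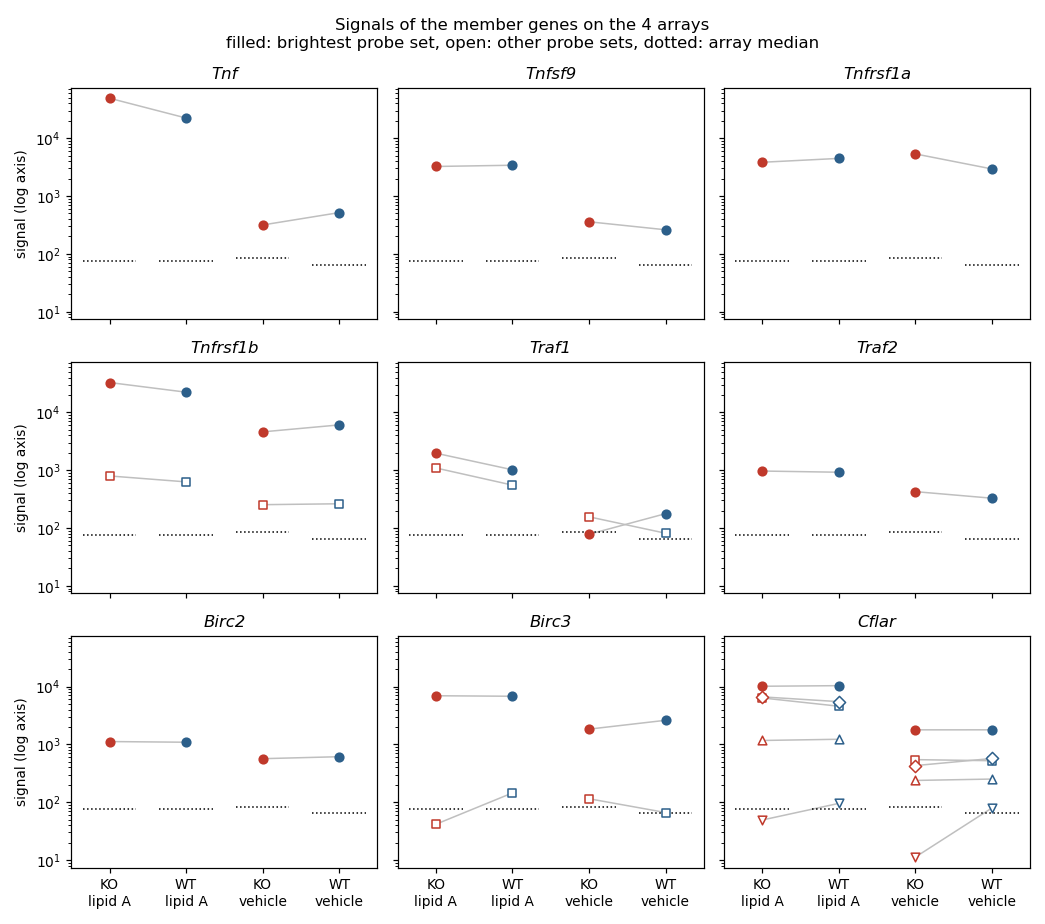
Signal of every probe set of the 9 genes (log axis) on the KO lipid A, WT lipid A, KO vehicle and WT vehicle arrays, 1 point for each array, with filled points for the brightest probe set, open points for others and dotted lines at the array medians. Tnf reaches 49032 in KO lipid A and 22302 in WT lipid A, whereas Birc2, Traf2 and the brightest probe set of Birc3 have nearly level KO and WT points under lipid A.

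Tnf encodes the founding ligand of the family. Its single probe set gave 49032 in KO and 22302 in WT with lipid A, and 316 in KO and 516 in WT with vehicle. The lipid A signals lay far above the vehicle signals in both genotypes, and KO was the higher of the genotypes under lipid A but the lower under vehicle. Lipid A over vehicle was thus 155-fold in KO and 43.2-fold in WT. KO exceeded WT 2.20-fold under lipid A and was 1.64-fold lower under vehicle. The ratio of the 2 responses was 3.60, to which the lower vehicle signal of KO contributes as well as the higher lipid A signal. No further probe set of Tnf is on the array to set beside these values.

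The promoters of 3 members are shown because all were over 2-fold higher with lipid A but stood differently between the genotypes, Tnf and Traf1 being about 2-fold higher in KO lipid A and Cflar level by its brightest probe set. Each window runs from 250 bases before to 50 bases after a RefSeq transcription start (build GRCm38.p6), 5′ to 3′ along the gene. Tnf lies on the minus strand at chr17:35201958-35202257, Traf1 on the minus strand at chr2:34961723-34962022 and Cflar on the plus strand at chr1:58711241-58711540. Capitals mark the TATA box (TATAAA) and the core of the interferon-stimulated response element (GAAANNGAAA), on either strand.
Tnf: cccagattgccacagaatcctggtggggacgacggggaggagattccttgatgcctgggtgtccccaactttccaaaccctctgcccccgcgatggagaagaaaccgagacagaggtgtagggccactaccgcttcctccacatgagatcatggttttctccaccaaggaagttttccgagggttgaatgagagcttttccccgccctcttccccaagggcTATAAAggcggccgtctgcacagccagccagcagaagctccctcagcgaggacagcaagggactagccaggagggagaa
Traf1: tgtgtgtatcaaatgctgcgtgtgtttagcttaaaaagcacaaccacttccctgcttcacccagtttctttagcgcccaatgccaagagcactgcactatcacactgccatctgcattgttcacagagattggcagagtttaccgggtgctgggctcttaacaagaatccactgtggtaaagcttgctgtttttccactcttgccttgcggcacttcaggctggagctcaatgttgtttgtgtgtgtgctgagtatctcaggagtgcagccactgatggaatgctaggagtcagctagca
Cflar: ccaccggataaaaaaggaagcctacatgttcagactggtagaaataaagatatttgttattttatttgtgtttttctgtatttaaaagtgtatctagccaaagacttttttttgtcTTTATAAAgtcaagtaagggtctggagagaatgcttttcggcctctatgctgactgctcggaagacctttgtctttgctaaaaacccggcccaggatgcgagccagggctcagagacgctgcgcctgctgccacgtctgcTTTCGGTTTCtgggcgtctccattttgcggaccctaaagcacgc
The Tnf window held TATAAA beginning 29 bases before the start, and the Traf1 window held no capital. The Cflar window held TATAAA on both strands, overlapping, with the plus-strand copy beginning 132 bases before the start used. It held the interferon element on the minus strand, after that start. The reference span of the Cflar gene begins earlier, at chr1:58711311, inside the window, and both TATAAA copies lie after that position. Windows were available for 9 of the 10 genes, 10 windows in all, since Birc2 has a pair of starts and Tnfsf9 none in the table. Over them TATAAA occurred in 2 windows and in 13.6% of all 32851 promoter windows, and the interferon element occurred in 2 (Cflar and Tnfrsf1b) and in 3.44% of all. The NF-κB consensus and the AP-1 site (TGANTCA) were each found in 0 of the 10 windows, against 4.51% and 7.81% of all windows. With shares this low, 0 of 10 windows does not show a lack of such sites, and sequence outside the windows was not searched. Counts of CG dinucleotides lay between 3 in Tnfsf15 and 34 in 1 window of Birc2, with 11 in Tnf, 4 in Traf1 and 12 in Cflar, and the median of all windows was 7. These letters describe the windows and show no binding.

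Tnfsf9 encodes 4-1BB ligand, a costimulatory member of the TNF family on antigen-presenting cells. Its single probe set gave 3242 in KO and 3405 in WT with lipid A, and 359 in KO and 261 in WT with vehicle. Both lipid A signals were several times the vehicle signals. Lipid A over vehicle was 9.04-fold in KO and 13.1-fold in WT. KO was 1.05-fold lower than WT under lipid A but 1.38-fold higher under vehicle, without the higher KO lipid A signal of Tnf.

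Of the receptors, only Tnfrsf1b passed 2-fold with lipid A. Its brightest probe set gave 32763 in KO and 22318 in WT with lipid A, and 4596 in KO and 6063 in WT with vehicle. The ratio of lipid A over vehicle was 7.13-fold in KO and 3.68-fold in WT. KO was 1.47-fold higher than WT under lipid A and 1.32-fold lower under vehicle, the same pair of directions as Tnf with smaller sizes. The other probe set, to which the annotation gives the same accession, gave 795 in KO and 628 in WT with lipid A, and 253 in KO and 263 in WT with vehicle. By it the responses were 3.14-fold and 2.39-fold in KO and WT. It placed KO 1.27-fold higher under lipid A and 1.04-fold lower under vehicle, so both probe sets had these directions and differed in size.

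Tnfrsf1a, the receptor with a death domain, had opposite lipid A differences in the genotypes. Its single probe set gave 3832 in KO and 4469.7 in WT with lipid A, and 5345 in KO and 2939 in WT with vehicle. KO vehicle was the highest array for this gene and WT vehicle the lowest. Lipid A was 1.39-fold lower than vehicle in KO and 1.52-fold higher than vehicle in WT. KO was 1.17-fold lower than WT under lipid A but 1.82-fold higher under vehicle. The KO response minus the WT response was -1.09 on the log2 scale, and each of the 4 ratios is within 2-fold.

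**Figure D2:**
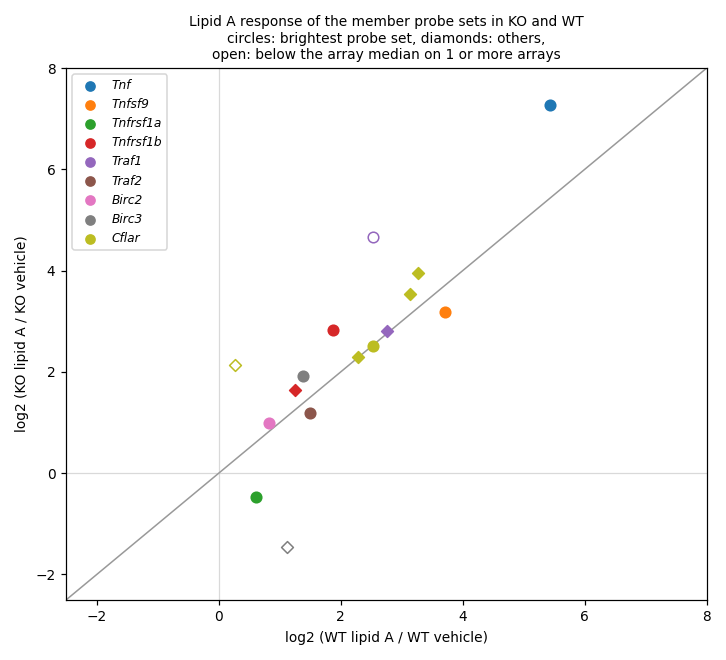
Log2 ratio of lipid A over vehicle for each member probe set, in KO (vertical) and WT (horizontal), with circles for the brightest probe set of a gene, diamonds for others, open symbols for probe sets below the array median on 1 or more arrays, and the line of equal response. Tnf lies farthest up at 7.28 in KO and 5.43 in WT, Tnfsf9 and Traf2 are among those below the line, and Tnfrsf1a is the 1 filled symbol below 0 in KO.

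Traf1 is itself a target of NF-κB and binds TNFR2 together with TRAF2. Its brightest probe set gave 1966 in KO and 1016 in WT with lipid A, and 78.0 in KO and 177 in WT with vehicle. The KO vehicle signal was below the median of its array, taken here as background, so ratios against it are lower bounds computed with that median. Lipid A over vehicle was at least 23.4-fold in KO and 5.74-fold in WT. A second probe set gave 1092 in KO and 552 in WT with lipid A, and 156 in KO and 81.3 in WT with vehicle, and its responses were 6.99-fold in KO and 6.79-fold in WT. Under lipid A both probe sets placed KO higher, by 1.93-fold and 1.98-fold. Under vehicle they disagreed, with KO at least 2.10-fold lower by the brightest and 1.92-fold higher by the other, so neither the vehicle difference nor a stronger response in KO is settled for this gene.

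Traf2, the adaptor that brings the cIAP proteins to both TNF receptors, gave 967 in KO and 922 in WT with lipid A, and 426 in KO and 328 in WT with vehicle. Lipid A over vehicle was 2.27-fold in KO and 2.81-fold in WT. KO stood above WT by 1.05-fold under lipid A and by 1.30-fold under vehicle, both within 1 SD of the spread between probe sets. That spread is technical and holds no variation between mice, cultures or replicate arrays.

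Birc2 and Birc3 encode closely related ubiquitin ligases, neighbours on chromosome 9. Birc2 gave 1118 in KO and 1088 in WT with lipid A, and 565 in KO and 612 in WT with vehicle. Its lipid A signals were 1.98-fold and 1.78-fold above vehicle in KO and WT, just under the 2-fold threshold. KO and WT differed by 1.03-fold under lipid A and 1.08-fold under vehicle. The brightest probe set of Birc3, a target of NF-κB, gave 6924 in KO and 6787 in WT with lipid A, and 1833 in KO and 2605 in WT with vehicle. By it lipid A was 3.78-fold above vehicle in KO and 2.61-fold in WT, and KO stood 1.02-fold above WT under lipid A but 1.42-fold below it under vehicle. The other probe set of Birc3 was dim, with 41.6 in KO and 145 in WT with lipid A, and 115 in KO and 66.3 in WT with vehicle. It opposed the brightest in KO, where lipid A was at least 1.51-fold lower than vehicle, and under lipid A it placed KO at least 1.91-fold lower than WT. When the probe sets of Birc3 were averaged by their median, the KO response was 0.23 on the log2 scale, against 1.92 from the brightest.

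Cflar had 5 probe sets, the most of any member, and 4 of them were above the median on every array. The brightest gave 10102.5 in KO and 10346 in WT with lipid A, and 1783 in KO and 1783 in WT with vehicle, so the genotypes were level under both treatments and lipid A was 5.67-fold above vehicle in KO and 5.80-fold in WT. A second gave 6345 in KO and 4562 in WT with lipid A, and 544 in KO and 521 in WT with vehicle. Another gave 6624 in KO and 5476 in WT with lipid A, and 429 in KO and 569.8 in WT with vehicle. By these the KO signal under lipid A was 1.39-fold and 1.21-fold higher than that of WT, and the responses were 11.7-fold and 15.4-fold in KO against 8.75-fold and 9.61-fold in WT. The fourth gave 1167 in KO and 1225 in WT with lipid A, and 238 in KO and 251 in WT with vehicle, or 4.91-fold in KO and 4.87-fold in WT. Over these 4 probe sets Cflar was induced in both genotypes, and KO and WT under lipid A lay between 1.05-fold lower and 1.39-fold higher in KO. The fifth probe set gave 49.2 in KO and 95.4 in WT with lipid A, and 11.2 in KO and 79.4 in WT with vehicle, with both KO signals below the median.

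**Figure D3:**
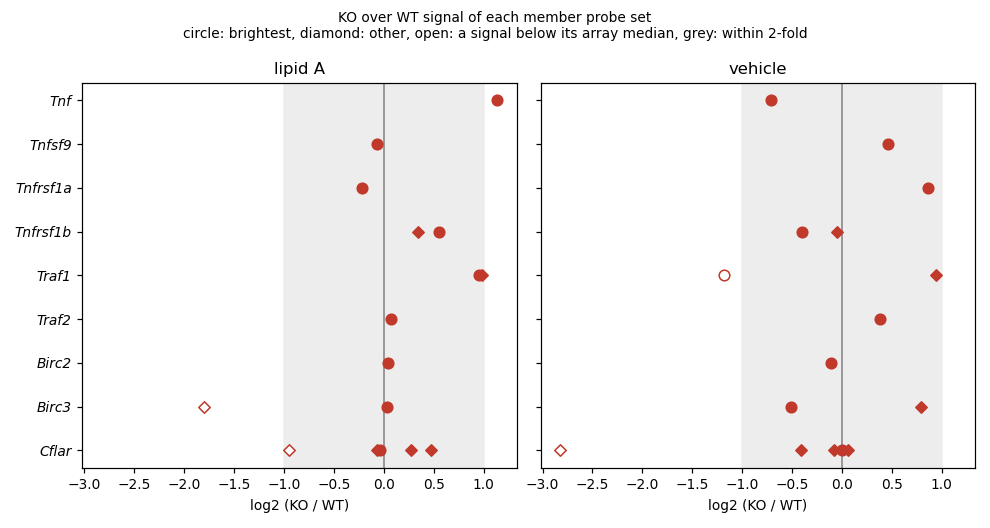
Log2 ratio of KO over WT for each probe set of the 9 genes, under lipid A (left) and vehicle (right), with circles for the brightest probe set, diamonds for others, open symbols where 1 signal was below its array median, and a grey band for differences within 2-fold. Under lipid A, Tnf at 1.14 is the 1 filled point outside the band and both points of Traf1 lie just inside it, at 0.95 and 0.98, while under vehicle the points of Traf1 lie on opposite sides of 0.

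By probe set, in KO 12 of 15 detected probe sets were over 2-fold above vehicle and 1, of Birc3, over 2-fold below it as measured. In WT 13 of 16 were over 2-fold higher and 0 lower. Under lipid A 10 of 16 probe sets were higher in KO than in WT and 6 lower, and under vehicle 6 were higher and 10 lower. Probe sets of 1 gene share its RNA and are no replicates. The same counts over all probe sets were not taken, so these have no background beside them. Neither a pattern by genotype nor its absence is read from them. For the 8 genes at or above the median on all 4 arrays, the KO response minus the WT response had a median log2 of 0.06, against -0.09 over 9047 such genes. It lay between -1.09 for Tnfrsf1a and 1.85 for Tnf.

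The other genes of the pathway were taken from 6 lists. Their counts under lipid A are to be read beside those of all 12335 detected genes. Of these, 10.6% were over 2-fold higher in KO and 10.3% lower as measured. With low signals raised to the array median the shares were 4.28% and 3.92%. Under vehicle 11.1% of 12002 detected genes were over 2-fold higher in KO and 6.17% lower as measured. With low signals raised these shares were 5.22% and 2.06%. Of TNF superfamily ligands, 7 of 12 on the array were detected under lipid A, and by the ratio as measured 4 were over 2-fold higher in KO than in WT (Ltb, Fasl, Cd70 and Tnfsf13b) and 2 lower (Tnfsf10 and Eda), with a median log2 difference of 1.12. With low signals raised to the median of their array, 1 was over 2-fold higher, Ltb, and 1 lower, Tnfsf10, with a median of 0.38. Under vehicle 5 ligands were detected, and as measured 2 were over 2-fold higher in KO (Ltb and Cd70) and 1 lower (Cd40lg). With low signals raised, 1 was higher, Ltb, and 0 lower. Ltb, which encodes lymphotoxin beta, gave 656 in KO and 105 in WT with lipid A, and 377 in KO and 122 in WT with vehicle, or 6.27-fold higher in KO with lipid A and 3.09-fold with vehicle. Tnfsf10, which encodes the death ligand TRAIL, gave 55.8 in KO lipid A, below the median, and 514 in WT lipid A, at least 6.78-fold lower in KO, and its other probe sets gave 24.4 and 108 in KO lipid A against 203 and 404 in WT lipid A. Fasl gave 97.4 in KO lipid A and 6.49 in WT lipid A, or at least 1.30-fold higher, and a further probe set was below the median on every array. Cd70, the ligand of CD27, gave 97.5 in KO lipid A and 13.4 in WT lipid A, or at least 1.30-fold higher.

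Of the other TNF receptors, 16 of 25 were detected under lipid A, and as measured 4 were over 2-fold higher in KO (Cd40, Tnfrsf13c, Tnfrsf18 and Tnfrsf23) and 2 lower (Tnfrsf19 and Tnfrsf25), with a median of 0.31. With low signals raised to the median, 2 were over 2-fold higher, Cd40 and Tnfrsf13c, and 0 lower, beside 4.28% and 3.92% of all detected genes. Under vehicle 14 were detected, and as measured 6 were over 2-fold higher in KO and 0 lower, beside 11.1% and 6.17%. These were Cd40, Tnfrsf13b, Tnfrsf13c, Tnfrsf22, Tnfrsf23 and Edar. With low signals raised, 5 of them, without Tnfrsf23, were higher and 0 lower, beside 5.22% and 2.06%. Cd40, a costimulatory receptor, gave 14405.5 in KO and 3613 in WT with lipid A, and 341 in KO and 164 in WT with vehicle by the brightest of its 3 probe sets. Tnfrsf13c, the receptor of the B cell survival factor BAFF, gave 238 in KO lipid A and 8.17 in WT lipid A, or at least 3.19-fold higher, and 234 in KO vehicle and 52.9 in WT vehicle, or at least 3.60-fold higher. Tnfrsf25 gave 5.50 and Tnfrsf19 11.4 in KO lipid A, both below the median, against 89.5 and 113 in WT lipid A. The 7 B cell markers on the array summed to 6747 in KO lipid A and 2343 in WT lipid A, and to 7295 in KO vehicle and 2538 in WT vehicle. At or above the median were 6 of them in KO lipid A and 4 in WT lipid A, and 7 in KO vehicle and 5 in WT vehicle, and none was below it on every array. Under each treatment 6 of the 7 were higher in KO, and Cd22 was lower, with 1012 in KO lipid A and 1880 in WT lipid A. The 6 under lipid A include Pax5, whose signals of 21.3 in KO and 15.2 in WT were both below the median. Without Cd22 the sums were 5735 in KO and 462 in WT with lipid A, and 5678 in KO and 589.6 in WT with vehicle. Ms4a1, which encodes CD20, gave 2931 in KO lipid A and 130 in WT lipid A, Ighm gave 1739 in KO lipid A and 88.7 in WT lipid A, and Cd79b gave 654 in KO lipid A and 41.7 in WT lipid A. Their part in the receptor and ligand differences, and in that of Traf1, which lymphocytes also express, was not tested, and in bulk RNA more cells of a type and more RNA per cell cannot be told apart.

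The signaling complexes below the receptors held 18 detected genes of 19 under lipid A. Of these, 0 were over 2-fold higher and 0 lower in KO, with a median of 0.09. Under vehicle 2 of 18 were over 2-fold higher in KO (Map3k14 and Map3k5) and 0 lower, beside 11.1% and 6.17% of all detected genes. Tab1, a partner of the kinase TAK1, gave 127 in KO lipid A and 251 in WT lipid A, or 1.98-fold lower. Map3k14, the kinase NIK, was at least 1.62-fold lower in KO, with 68.7 in KO lipid A and 123 in WT lipid A. Tank was 1.44-fold lower in KO lipid A. Under vehicle Map3k14 was 2.08-fold higher in KO, with 222 in KO and 107 in WT, and Tab1 and Tank were 1.07-fold and 1.47-fold lower. Of the genes of death signaling, 0 of 8 passed 2-fold in either direction under lipid A, with a median of -0.03. Under vehicle likewise 0 of 8 did, with a median of 0.11. Mlkl, the effector of necroptosis, was 1.71-fold lower in KO lipid A (1534 in KO and 2628 in WT). Bid, which links caspase-8 to mitochondria, was 1.68-fold lower, and its other probe sets placed it lower too. Htra2 was 1.58-fold lower in KO lipid A but 1.43-fold higher in KO vehicle, and its other probe set had the same directions.

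Of the survival genes outside the group, 14 of 15 were detected, with 2 over 2-fold higher in KO lipid A (Ier3 and Tnfaip3), 0 lower and a median of 0.22. Under vehicle 0 were over 2-fold higher in KO and 2 lower (Ier3 and Sod2), beside 11.1% and 6.17% of all detected genes. Ier3, an immediate early gene, gave 19271 in KO and 5775 in WT with lipid A, and 810.4 in KO and 1679 in WT with vehicle. KO was 3.34-fold above WT under lipid A and 2.07-fold below it under vehicle, the directions seen for Tnf. Tnfaip3, which encodes the NF-κB inhibitor A20, was higher in KO lipid A by 2.11-fold and, by its other probe set, 2.39-fold. Gadd45b was 1.87-fold higher.

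Of genes that process TNF or act on its mRNA, 11 of 12 were detected, with 3 over 2-fold higher in KO lipid A and 0 lower, and a median of 0.37. Under vehicle 2 were over 2-fold higher in KO (Rhbdf1 and Zfp36l1) and 0 lower, beside 11.1% and 6.17% of all detected genes. Rhbdf1, an inactive rhomboid protein that works with the TNF-releasing protease ADAM17, gave 526 in KO lipid A and 81.2 in WT lipid A, or 6.47-fold higher, and 290.4 in KO vehicle and 89.5 in WT vehicle, or 3.25-fold higher. Zfp36l1, an mRNA decay factor, gave 996 in KO lipid A and 260.3 in WT lipid A, or 3.82-fold higher; its other probe set gave 147 in KO lipid A and 98.0 in WT lipid A. Under vehicle KO was 2.89-fold above WT. Map3k8, the kinase TPL2, was 2.07-fold higher in KO lipid A (1944 in KO and 939.6 in WT) and 1.31-fold lower in KO vehicle.

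**Figure D4:**
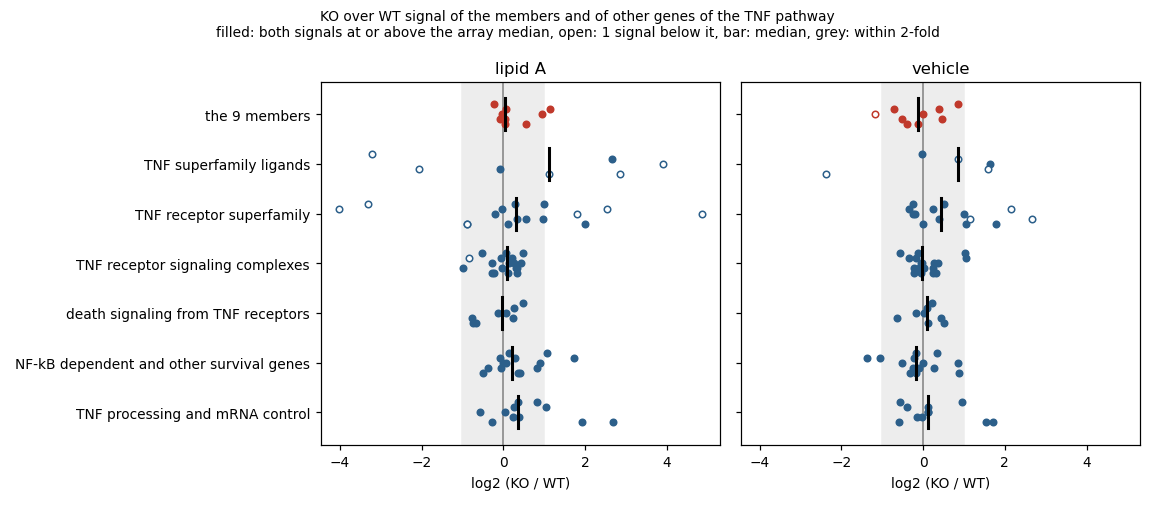
Log2 ratio of KO over WT for the detected genes among the 9 members and in 6 lists of other TNF pathway genes, under lipid A (left) and vehicle (right), 1 point a gene, open where 1 signal was below its array median, with the list median as a bar and a grey band for differences within 2-fold. The signaling complexes and death signaling genes lie inside the band under lipid A (medians 0.09 and -0.03), while the ligands and receptors spread widely with many open points, whose plotted ratios are as measured.

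Likeness of pattern was measured as the Euclidean distance between log2 signals centred on each gene's mean over the 4 arrays, among 9047 genes at or above the median on all of them. Nearest to Tnf were the chemokine Cxcl1 (0.88), Marcksl1 (0.93), Ptgs2, which encodes cyclooxygenase-2 (1.27), the chemokine Ccl5 (1.30) and the antiviral gene Rsad2 (1.37). Cxcl1 gave 41538 in KO and 8970.3 in WT with lipid A, and 137 in KO and 222 in WT with vehicle. Rsad2 was lower in KO than in WT under lipid A, with 72948 in KO and 83419 in WT. Nearest to the brightest probe set of Traf1 were AA467197 (0.50), the proteoglycan gene Sdc4 (0.50), the endocytosis gene Ehd1 (0.55), Ier3 (0.70) and Gpr85 (0.71). Traf1 was itself below the median in KO vehicle, its distances use that background signal of 78.0, and its other probe set has the opposite KO over WT direction under vehicle. With 4 arrays such distances are a description of these arrays.

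The arrays as a whole carried the macrophage markers, with 8 of 8 at or above the median on every array and sums of 177903 in KO and 205812 in WT with lipid A, and 159993 in KO and 186949 in WT with vehicle. Within these, Adgre1, a surface marker of macrophages, gave 6633 in KO and 9216 in WT with lipid A. With vehicle it gave 3726 in KO and 10187 in WT, or 2.73-fold lower in KO. Under vehicle Cd68, Csf1r, Lyz2 and Mertk were also lower in KO, by 1.10-fold, 1.14-fold, 1.18-fold and 1.46-fold. Fcgr1, Itgam and Cd14 were higher there, by 1.94-fold, 1.21-fold and 1.03-fold. Under lipid A Cd14 was 1.97-fold higher in KO, and the other macrophage markers were lower. Setdb1 gave 386 in KO and 521 in WT with lipid A, and 346 in KO and 589 in WT with vehicle. Its residual signal in KO is no check of the labels, since the place of this probe set relative to the deleted part is not known here. Markers of resident large peritoneal macrophages summed to 3026 in KO lipid A and 515 in WT lipid A, with 4 and 2 of 6 at or above the median, and to 3205 in KO vehicle and 506 in WT vehicle, with 4 and 3. Of these, 2 (Timd4 and Alox15) were below the median on every array. T and NK cell markers summed to 791 in KO lipid A and 409.9 in WT lipid A, with 6 and 2 of 8 at or above the median. Under vehicle they summed to 691 in KO and 199 in WT, with 3 and 0 of 8, so the WT sums are largely background. Neutrophil markers lay between 2122 and 2748 and mast cell and eosinophil markers between 82.1 and 402 on any array, and fibroblast and mesothelium markers between 704 and 861 in KO and between 1429 and 1603 in WT. Within the neutrophil sums, S100a8 gave 676 in KO and 1721 in WT with lipid A, and 569 and 1727 with vehicle. Csf3r went the other way, with 1583 in KO and 731 in WT with lipid A, and 1083 and 753 with vehicle. The 3′ to 5′ signal ratio of actin, a sign of RNA integrity, was 1.79 in KO and 2.09 in WT with lipid A, and 2.19 in KO and 2.00 in WT with vehicle. That of Gapdh was 1.06 in KO and 1.07 in WT with lipid A, and 1.35 in KO and 0.945 in WT with vehicle. KO vehicle was the highest array by both. The part of these differences in the results was not tested.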

How the data were processed

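The deposited table holds probe set intensity on a linear scale for 4 arrays, made by the authors from scanned arrays with software that the sources used here do not name. With 2% trimmed off both ends, every array averaged 500.004, from which scaling of whole arrays to a common mean was inferred, and no further normalization was applied. Signals were log2-transformed. Of 45101 probe sets, 64 controls were left out, and genes were named from the platform annotation where it gave 1 symbol (34945 probe sets). A signal below the median of its array counted as background, and ratios to it are lower bounds computed with that median. A gene counted as detected when the higher of the compared signals reached its median. The methods name 2-fold and 3-fold thresholds, of which the study used 2-fold for induction by lipid A and 3-fold between KO and WT. Here 2-fold was used for all comparisons, with 3-fold as an alternative, and the present and increased calls were not used. Counts rest on the ratios as measured unless low signals are said to be raised. Named were all members, up to 3 genes a list with the largest log2 KO over WT difference under lipid A as measured, which puts genes with a background signal first, the 2 brightest markers of a list that moves beside a result, the 5 genes most like Tnf and Traf1, and genes counted in small numbers. Members and lists were chosen with earlier results of these data known. Ltb, Cd40, Ighm, Cd79b, Pax5, S100a8, Csf3r and the macrophage markers beside Adgre1 were named after their values were seen. The counts of the lists under vehicle, those with low signals raised and the B cell sum without Cd22 were added then. Fold calling was tested on simulated data. The number of arrays limits the precision. Alternatives were other array scalings, detection filters, floors, probe set choices and thresholds. Promoter sequences came from RefSeq (GRCm38.p6). Python 3.11.15, numpy 2.4.6, pandas 2.3.3, SciPy 1.17.1 and matplotlib 3.10.9 were used.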

Additional observations from a re-analysis of the deposited data

Results flagged for a closer look

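Genes at or above the median on all 4 arrays were noted where the sign of a difference turned between genotypes or treatments. With 1 array for each condition none of these turns was tested. The lipid A difference of Tnfrsf1a was -0.48 in KO and 0.60 in WT on the log2 scale, a gap of -1.09, and its KO over WT difference was -0.22 under lipid A and 0.86 under vehicle, which is the same gap. The KO over WT difference of Tnf was 1.14 under lipid A and -0.71 under vehicle, a gap of 1.85. That of Tnfrsf1b was 0.55 under lipid A and -0.40 under vehicle, a gap of 0.95. The remaining gaps were 0.54 for Birc3, -0.53 for Tnfsf9 and 0.15 for Birc2, and these come from differences between KO and WT within 1.5-fold under both treatments.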

How the results depend on the processing

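No paired analysis was possible because each condition has 1 array. The counts of members over 2-fold with lipid A, 7 in KO and 7 in WT, changed by at most 1.5 times under every alternative run. Under lipid A the count of members over 2-fold higher in KO was 1, beside 10.6% of all detected genes. It was 0 at a 3-fold threshold, beside 6.35%, and 2 at a 1.5-fold threshold, beside 17.8%. Under vehicle the count of members over 2-fold lower in KO was 1 (Traf1), beside 6.17% of all detected genes. It was 2 with arrays centred on their median, where Tnf joined, and 2 at a 1.5-fold threshold, beside 10.4% and 11.3%. It was 0 when both arrays had to reach their median, beside 2.08%. By the median over the probe sets of a gene it was 0, beside 7.41%, and at a 3-fold threshold 0, beside 3.65%. The count higher in KO under vehicle was 0, and 1 at a 1.5-fold threshold, beside 11.1% and 20.0%. With the median over the probe sets of a gene, the KO response minus the WT response was 1.09 for Traf1 (2.13 as measured from the brightest probe set, and 2.02 with its KO vehicle signal raised to the median), -1.03 for Birc3 (0.54) and 0.76 for Cflar (-0.03). No difference past 2-fold by the brightest probe set turned its sign under the scalings, the floor or the probe set choices run. Smaller differences did, among them the KO minus WT response of Birc3. With that median its log2 KO over WT was -0.88 under lipid A (0.03 by the brightest) and 0.14 under vehicle (-0.51). Signals near background limit what can be said of the second probe set of Birc3 and the fifth of Cflar.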
